A study of Saccharomyces cerevisiae BY4741 with 24 samples.

Results

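The deposited comparison tables hold 1042 features of the yeast genome, and 65 of them are annotated as cryptic unstable transcripts (CUTs), Xrn1-sensitive unstable transcripts (XUTs) or anti-sense transcription units. They were picked by the class that the authors' annotation gives each feature, a choice made with earlier results of these data known. There were 52 CUTs, 6 XUTs and 7 anti-sense units, spread over all 16 nuclear chromosomes of Saccharomyces cerevisiae.

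RNA was sequenced from BY4741, a haploid laboratory strain, in 4 groups of 3 libraries, 12 libraries in 24 read files. The groups were untreated cells, cells with 1% methanol, cells with 0.5 mM abscisic acid (ABA) and cells with 2 mM ABA, both ABA groups in 1% methanol. All were grown for 5 h in synthetic medium without tryptophan, from 3 colonies on different days. The study's resource table names a NAB3-ABI strain for these data where the labels and methods name BY4741, and no value used here settles which it was. ABA is a plant hormone used in that study as a chemical switch and methanol is its solvent, so the comparisons asked whether the switch or the solvent alters the transcriptome.

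Yeast RNA polymerase II also transcribes the genome outside genes and across them. CUTs are short RNAs whose transcription is ended by the Nrd1-Nab3-Sen1 complex and which the nuclear exosome, helped by the TRAMP complex, degrades at once, so that they are mostly seen when that machinery is disabled. XUTs reach the cytoplasm and are degraded from their 5′ end by the exonuclease Xrn1, and many of them run antisense to genes. In a wild-type strain, members of these classes are generally scarce, unless another RNA covers the same bases.

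Few annotated transcripts of these classes were in the tables. The CUTs present were 2.15% of the 2421 annotated, the XUTs 0.362% of 1658 and the anti-sense units 1.74% of 402. A related class, the stable unannotated transcripts (SUTs), had 0 of 847 in the tables. No source used here says how the rows were picked, so absence from the tables was not read as absence of RNA.

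Most members lay on top of a gene, on its own strand. Of the 65, 53 shared at least 1 base with the annotated exons of a protein-coding gene on the same strand, and all 53 had their gene in the tables as well, 47 genes in all. Among CUTs the share was 92.3% (48 of 52), against 26.4% of all 2421 annotated CUTs. Among anti-sense units it was 71.4% (5 of 7), against 24.9% of those annotated, and among XUTs 0 of 6, against 6.76%. These shares are descriptions and were not tested.

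The overlap was usually deep. There were 34 CUTs wholly inside exons of coding genes on their strand, and 45 members had at least 50% of their bases there. The overlap reached into the reading frame for 44 of the 53 members, and for the other 9 it stayed in the annotated transcript ends outside the start and stop codons. Of the 48 CUTs with such a gene, 37 (77.1%) were centred in the first 25% of it or ahead of it, against 69.0% of the 591 annotated CUTs that overlap a gene and are not in the tables. A read from an unstable transcript and a read from the mRNA over the same bases and strand cannot be told apart in these counts.

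The genes underneath had a median mean normalized count of 42.2, against 18.6 for all 1042 features, and some of them belong to pathways known for abundant mRNAs. There were 16 members in 12 genes of glycolysis and alcoholic fermentation, among them TDH3, ENO2, FBA1, GPM1, CDC19, TPI1 and ADH1, and 5 in ribosomal protein genes, lists drawn up after the genes had been seen. A few members were very short. There were 4 under 50 bases, and the sequences below show 3 of them in place, because these lie wholly inside a reading frame. Each line is the gene's own strand, 5′ to 3′, in the R64 reference (minus for RPL41A and RPL38, plus for RPP0), and capitals mark the bases annotated as the CUT.

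CUT_CDL184CTs3 in RPL41A: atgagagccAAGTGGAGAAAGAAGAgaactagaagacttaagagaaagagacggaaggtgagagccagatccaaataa

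CUT_CLR325CD3 in RPL38: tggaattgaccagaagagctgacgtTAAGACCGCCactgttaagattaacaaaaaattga

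CUT_CLR340WD3-A in RPP0: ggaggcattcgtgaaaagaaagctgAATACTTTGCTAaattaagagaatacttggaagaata

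The first line is the whole reading frame of RPL41A, one of the shortest protein genes of yeast, at chrIV:130407-130484 (minus strand), and the CUT is its 16 bases at 130460 to 130475. That CUT had a mean normalized count of 63.0, or 3936 per kilobase, and RPL41A had 167, or 409 per kilobase. CUT_CLR325CD3, 10 bases at chrXII:781311-781320, had a mean of 17.8 against 116 for RPL38, and CUT_CLR340WD3-A, 12 bases at chrXII:805915-805926, had 13.6 against 88.3 for RPP0. A normalized count is a read count divided by the size factor of its library, here averaged by the authors over all libraries. Counts per kilobase are inflated for features shorter than a read if each read that touches them counts. No source used here states that rule.

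Members differed widely in abundance. The lowest mean count was 4.67 and the highest 195, with a median of 14.2 against 18.6 for all 1042 features. There was 1 member among the 100 features with the highest means, and 26 members were at or above the median of all features. Their summed means were 1727 of 52277, or 3.30% of all counts, and the 12 members without a coding gene on their strand made up 0.364%. Per kilobase of their own length, the median was 64.0 for members on a coding gene, 42.4 for the genes under them and 24.7 for the 12 others.

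A member's count was a fraction of its gene's count that usually exceeded its fraction of the gene's length. The median member had 29.5% of its gene's count (quartiles 20.7% and 45.2%) and shared 14.1% of the gene's length. The count share was larger than the length share for 45 of 53 members. The count share takes all reads of the member, and the length share only its bases inside the gene. Reads on bases outside the gene therefore raise the count share alone. Some members with the larger count share have no base outside their gene. Among them, CUT_CDL184CTs3 in RPL41A had 37.7% of the count and 3.92% of the length. CUT_CPR080WTs3-A in TEF1 had 37.1% and 15.2%. Others without such bases had the smaller count share, such as CUT_CFL031WD2 in HAC1, with 15.3% and 17.7%. What raised the count share of members inside their gene was not tested. The 2 most abundant CUTs, CUT_CGR192CTs2 in TDH3 (glyceraldehyde-3-phosphate dehydrogenase) and CUT_CPR080WTs3-A in TEF1 (translation elongation factor eEF1A), had means of 113 and 106, or 31.3% and 37.1% of their gene. CUT_CKL152CTs2 in GPM1 (phosphoglycerate mutase) had 91.4, CUT_CKL060CTs3-C in FBA1 (aldolase) 65.6 and CUT_CHR174WTs2 in ENO2 (enolase) 58.5. Several of these genes have near-identical copies, such as TDH3 with TDH2, ENO2 with ENO1 and TEF1 with TEF2, and the authors placed reads that match several places at random, so the split between copies is uncertain.

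**Figure D1:**
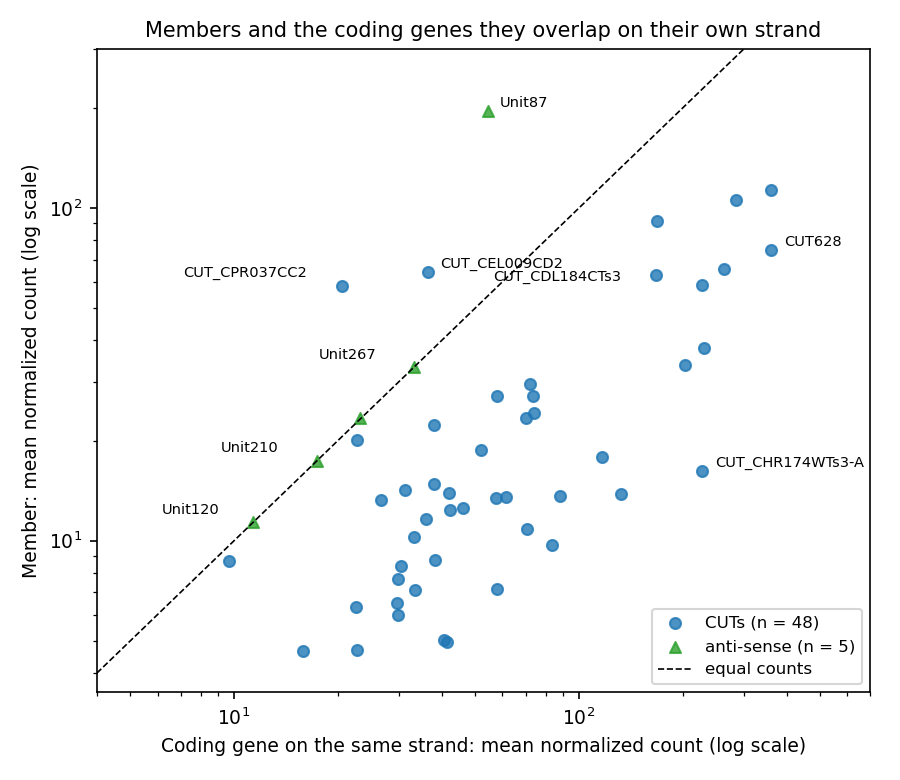
Mean normalized count of each of 53 members (vertical, log scale) against that of the coding gene it overlaps on its own strand (horizontal, log scale), with circles for 48 CUTs and triangles for 5 anti-sense units. Most points lie below the dashed line of equal counts, and Unit120, Unit210 and Unit267 lie on it. Unit396 lies barely above it, and Unit87, CUT_CPR037CC2 and CUT_CEL009CD2 lie clearly above it.

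Apart from Unit396, the 7 members with at least their gene's count fall into 2 kinds. For 3 anti-sense units, every deposited value equalled that of the gene on the same strand. These were Unit120 with PMR1, a calcium pump of the Golgi (mean count 11.4), Unit210 with SOD1, superoxide dismutase (17.4), and Unit267 with RPS28B, a ribosomal protein (33.3). Each of these units is antisense to other genes. Unit210 covers 1088 of the 1247 bases of ADO1 (adenosine kinase) on the opposite strand, where ADO1 had a mean of 18.7, and the unit's own value equalled that of SOD1 alone. Another unit, Unit396, came close to its gene, at 23.3 against 23.2 for NHP6A, a chromatin protein. No source used here states whether the authors counted by strand. The 3 identical units had no count beyond that of their gene, although Unit210 has 1555 bases ahead of SOD1. Reads of such a unit over the gene cannot be told apart from those of the gene.

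The other 3 extend well past the annotated gene or across 2 genes. Unit87, at chrIV:1489265-1489870 on the minus strand, was the most abundant member, with a mean of 195, or 322 per kilobase, against 54.4, or 271 per kilobase, for YDR524C-B, a small gene that it contains. CUT_CEL009CD2, at chrV:139697-140334, had 64.3 against 36.4 for GCN4, or 101 against 29.8 per kilobase. GCN4 is the activator of amino acid synthesis genes whose long leader carries short upstream reading frames, and the CUT covers that gene's first 261 bases and the 377 bases ahead of its annotated start. CUT_CPR037CC2, at chrXVI:646248-646564, had 58.4 against 20.5 for IRC16, and its remaining 154 bases lie in YPR036W-A, which had 92.4.

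The 12 members with no coding gene on their strand are the ones that lie under no annotated mRNA of their strand. They comprise 4 CUTs, all 6 XUTs and 2 anti-sense units, with mean counts between 4.78 and 40.1. CUT015 (40.1, chrII:326297-326777) and CUT_CtV(UAC)BTa1 (28.4), which lies within it, end 14 and 16 bases from the valine tRNA gene tV(UAC)B on the other strand. CUT677 (27.6, chrX:139951-140119, minus strand) ends where the snoRNA gene snR190 begins, with 0 bases between them on the same strand. XUT_12F-188 (20.8) lies in the spacer of the repeated ribosomal DNA, 278 bases from RDN5-1, where reads placed at random make its level uncertain.

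The other XUTs ran opposite or beside genes. XUT_11R-226 (16.0, chrXI:517050-517508, minus strand) lies 128 bases from GAP1, the general amino acid permease, on the opposite strand. XUT_12R-299 (14.7) and Unit274 (7.45) inside it run antisense across GAS2, a gene of spore wall synthesis, which had 10.6. XUT_9F-4 (8.85) runs antisense to YIL169C, and XUT_15F-14 (4.80) and Unit344 (6.97) antisense to HPF1, a cell wall protein gene that YIL169C resembles. XUT_4F-381 (9.57) and CUT488 (4.78) overlap no coding gene on either strand.

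The sequences of CUT677 and of the first 300 bases of XUT_11R-226 are given as examples of members beside a snoRNA gene and beside a permease gene. Capitals mark the short RNA motifs bound by Nrd1 (GTAA or GTAG) and Nab3 (TCTT or CTTG), searched in the sense strand only, where TCTT and CTTG can overlap in TCTTG.

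CUT677: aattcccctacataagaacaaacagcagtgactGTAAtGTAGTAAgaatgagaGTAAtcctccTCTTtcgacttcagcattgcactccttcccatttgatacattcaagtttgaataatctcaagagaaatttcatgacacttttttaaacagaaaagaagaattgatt

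XUT_11R-226, first 300 bases: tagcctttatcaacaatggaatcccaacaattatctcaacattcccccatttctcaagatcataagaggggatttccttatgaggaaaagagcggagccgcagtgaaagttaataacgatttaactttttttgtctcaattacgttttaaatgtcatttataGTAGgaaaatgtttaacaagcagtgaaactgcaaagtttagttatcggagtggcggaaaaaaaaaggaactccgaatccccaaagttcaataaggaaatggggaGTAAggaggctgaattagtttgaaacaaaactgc

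CUT677 holds 4 Nrd1 matches and 1 Nab3 match. Of the 1416 annotated CUTs at least as long, 79.6% hold an Nrd1 match and 92.1% a Nab3 match in their first 169 bases, so finding both is common. The XUT window holds 2 Nrd1 matches and 0 Nab3 matches, where 91.9% and 93.8% of 1527 annotated XUTs hold one in their first 300 bases. Over whole sequences, the 12 members off coding genes had 1.01 Nrd1 and 1.34 Nab3 matches per 100 bases, the 53 on coding genes 0.60 and 1.22, all annotated CUTs 0.91 and 1.94, and coding sequences from start to stop 0.52 and 0.83.

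Change with methanol and ABA was measured in 6 comparisons. A member was called changed where its log2 fold change passed 1 in either direction with an adjusted p no higher than 0.05, from the DESeq2 tables of the authors, or for 2 mM ABA against untreated from a Wald test on their estimates. The table titled as 2 mM ABA against untreated holds 0.5 mM ABA against methanol by its values and was used as such. The comparisons that held fewer members kept those with the higher mean counts. With 0.5 mM ABA against untreated, the lowest member kept had a mean of 11.4 and the highest left out 10.8. With 2 mM ABA against untreated or methanol, these means were 7.65 and 7.45. No member was called in any comparison. With methanol against untreated, 0 of 65 members were called (0% of all 1042 features), and 3 had an unadjusted p under 0.05 (3.93% of all features). With 0.5 mM ABA, 0 of 43 were called against untreated (0.573% of 698 features), with 1 at an unadjusted p under 0.05 (8.02%). Against methanol it was 0 of 65 (0% of 1042) with 1 under 0.05 (7.49%).

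With 2 mM ABA, 0 of 52 members were called against untreated (0.476% of 840 features) and 1 had an unadjusted p under 0.05 (8.21%). Against methanol, 0 of 52 were called (0.119% of 840), with 4 members under 0.05 (10.5%). Between 2 mM and 0.5 mM ABA, 0 of 65 were called (0% of 1042) and 4 were under 0.05 (5.09%). The share of members under 0.05, from 1.54% to 7.69%, was above the share of all features in 2 of the 6 comparisons and below it in the other 4. Comparisons with the same control share libraries and are not independent.

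The power to see a change was limited. The median standard error of a member's log2 fold change was between 0.53 and 0.66 over the comparisons, against 0.45 to 0.59 for all features. A 95% interval that stayed within 2-fold in both directions was reached by 3 to 11 members per comparison. For the others a change of 2-fold in one direction or the other lay inside the interval, with the exception of CUT_COL059WD2 for 2 mM ABA against methanol, whose interval lay wholly beyond 2-fold (a fold of 0.066 to 0.459). The lack of a call does not show that levels stayed the same.

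In each comparison the median change of the members was smaller than the median standard error of a single member's fold change. That error is not the error of a median over members, which was not computed. The median log2 fold change with methanol against untreated was 0.12 for members and 0.00 for all features. With 0.5 mM ABA it was -0.02 against untreated and -0.21 against methanol, where all features had 0.00 and 0.01. With 2 mM ABA it was -0.08 against untreated and -0.10 against methanol, where all features had 0.03 and 0.01. It was -0.05 between the doses, against -0.02 for all features. The widest of these gaps, for 0.5 mM ABA against methanol, came with 43 of 65 members below 0. In that comparison 33.8% of members and 50.7% of all features were above 0, and the coding genes under the members had a median of -0.16. With methanol against untreated, 61.5% of members and 49.9% of all features were above 0.

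**Figure D2:**
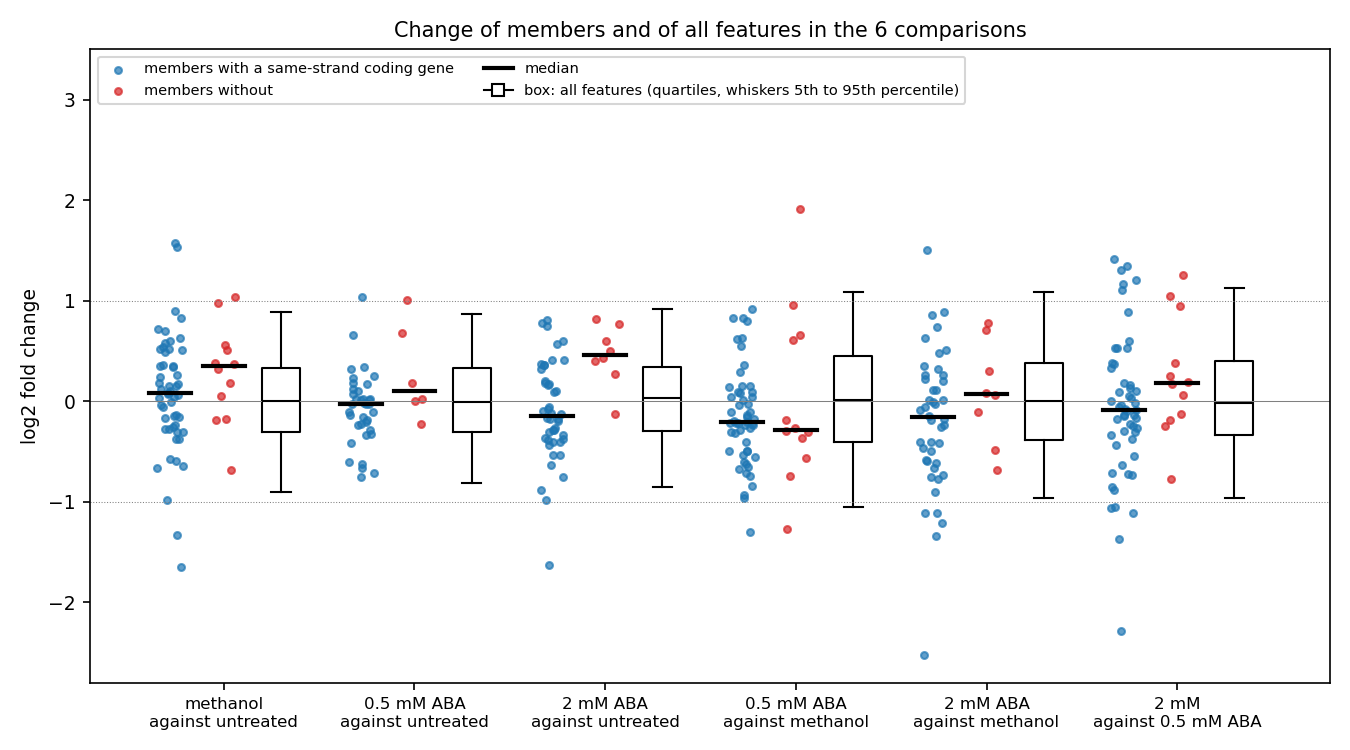
Log2 fold change (vertical) of 53 members with a coding gene on their own strand (blue), 12 without (red) and all features of the comparison (box, quartiles, with whiskers from the 5th to the 95th percentile) in 6 comparisons, with black bars for medians. Members spread around 0 in every comparison, from -2.52 to 1.91, and fewer points are drawn where a comparison has fewer features.

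The 12 members off coding genes had medians of 0.35 (methanol against untreated, 9 of 12 above 0), 0.10 and 0.46 (0.5 and 2 mM ABA against untreated, with 6 and 8 members), -0.28 and 0.07 (the same doses against methanol, with 12 and 8 members) and 0.18 (between the doses). The members on coding genes had 0.08, -0.03, -0.14, -0.20, -0.16 and -0.09 in the same order. These are medians of few features with wide intervals, they were not tested, and several of the 12 overlap each other.

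Members on coding genes moved with their gene in part. Over the 53 pairs, Pearson's r between the log2 fold changes of member and gene was 0.50 for methanol against untreated, 0.39 for 0.5 mM ABA against methanol and 0.41 between the doses. Over fewer pairs it was 0.56 (37 pairs, 0.5 mM ABA against untreated), 0.63 (44, 2 mM ABA against untreated) and 0.40 (44, 2 mM ABA against methanol). Signs were the same for 35 of 53, 39 of 53, 43 of 53, 27 of 37, 35 of 44 and 36 of 44 pairs in that order. The points share libraries and may share reads, and 3 pairs are identical by value, so these figures describe the tables and carry no test. The median absolute gap between member and gene was 0.13 to 0.26 log2 units. The error of such a gap is not known, since member and gene may share reads.

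**Figure D3:**
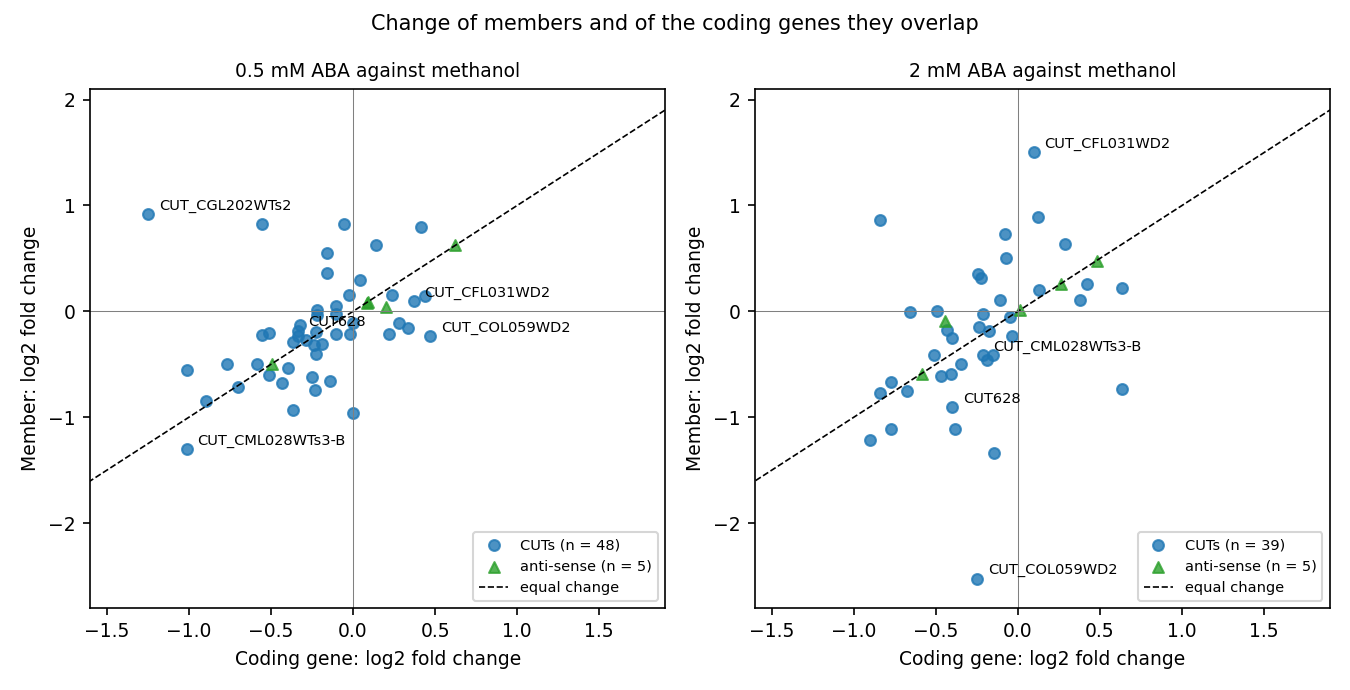
Log2 fold change of each member (vertical) against that of the coding gene on its strand (horizontal), for 0.5 mM ABA against methanol (left, 53 pairs) and 2 mM ABA against methanol (right, 44 pairs), with a dashed line of equal change. Most pairs scatter around the line, and CUT_COL059WD2 lies far below it on the right at -2.52 against -0.25 for GPD2.

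The member furthest from its gene was CUT_COL059WD2, at chrXV:217016-217280, which covers the first 155 bases of GPD2 (glycerol-3-phosphate dehydrogenase, for glycerol synthesis) and the 110 bases ahead of it. Its level was 11.1 normalized counts in untreated cells, 20.7 with methanol, 17.6 with 0.5 mM ABA and 3.60 with 2 mM ABA. The last is the lowest of the 4, and its 95% interval, 1.67 to 7.76, did not overlap those of the methanol and 0.5 mM ABA groups. The log2 fold change with 2 mM ABA was -2.52 ± 0.71 (SE) against methanol, the lowest adjusted p of any member at 0.0856 (DESeq2). It was -2.29 ± 0.72 against 0.5 mM ABA (adjusted p = 0.264, DESeq2) and -1.63 ± 0.71 against untreated (adjusted p = 0.482, Wald test). GPD2 itself had levels of 37.6, 21.3, 29.5 and 17.9 over the 4 groups, with log2 fold changes of -0.25, -0.72 and -1.07 in those 3 comparisons. This member did not pass the threshold of a call, and its gap to GPD2 was not tested.

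CUT628, at chrVII:882570-882714, covers the last 25 bases of the TDH3 transcript and 120 bases past it. It had 66.9 normalized counts in untreated cells, 95.8 with methanol, 84.5 with 0.5 mM ABA and 51.2 with 2 mM ABA. The 2 mM ABA group was the lowest and the methanol group the highest. The log2 fold change with 2 mM ABA was -0.91 ± 0.33 against methanol (adjusted p = 0.184, DESeq2), where TDH3 had -0.40, and -0.72 ± 0.33 against 0.5 mM ABA (adjusted p = 0.808), where TDH3 had -0.06. The members in ENO2 followed that gene downward against methanol, with -1.11 ± 0.49 for CUT_CHR174WTs3-A (adjusted p = 0.384) and -0.67 ± 0.35 for CUT_CHR174WTs2 (0.461), beside -0.77 for ENO2 (0.0856, all DESeq2).

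CUT_CFL031WD2 lies in the 5′ part of HAC1, which encodes the transcription factor of the unfolded protein response. Its levels were 14.6 in untreated cells, 5.83 with methanol, 6.22 with 0.5 mM ABA and 16.6 with 2 mM ABA. It was thus lower in the methanol and 0.5 mM groups than in the other 2, with overlapping intervals. The log2 fold change with 2 mM ABA against methanol was 1.51 ± 0.73 (adjusted p = 0.449, DESeq2), where HAC1 had 0.10. This CUT also overlaps YFL032W on its strand. YFL032W had 6.99, 4.95, 2.67 and 11.3 in untreated cells, with methanol, with 0.5 mM and with 2 mM ABA. It too was lower in the methanol and 0.5 mM groups than in the other 2.

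Among the other members with the highest Wald statistics (the fold change over its standard error) for 2 mM ABA against methanol were CUT155 and CUT_CBR196CTs2. CUT155 covers the first 149 bases of ASN2 (asparagine synthetase) and the 348 bases ahead of it, and had 20.5, 13.0, 23.1 and 23.6 normalized counts in untreated cells, with methanol, with 0.5 mM and with 2 mM ABA. The methanol group was the lowest, with overlapping intervals. Its log2 fold change against methanol was 0.86 ± 0.50 with 2 mM ABA (adjusted p = 0.540, DESeq2), where ASN2 had -0.84, and 0.83 ± 0.51 with 0.5 mM ABA (adjusted p = 0.686, DESeq2), where ASN2 had -0.56. CUT_CBR196CTs2 in PGI1 (phosphoglucose isomerase) had 17.5, 8.87, 11.4 and 16.4 over the same groups, again lowest with methanol. It was at 0.89 ± 0.61 with 2 mM ABA against methanol (adjusted p = 0.638, DESeq2), where PGI1 had 0.12.

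Between the doses, CUT_CGR240CTs2 at the start of PFK1 (phosphofructokinase) and CUT_CDR276CTs3 in PMP3 (a small plasma membrane protein) were lowest with 0.5 mM ABA and highest with 2 mM. CUT_CGR240CTs2 had 10.1, 14.7, 7.57 and 16.9 in untreated cells, with methanol, with 0.5 mM and with 2 mM ABA, and its log2 fold change between the doses was 1.16 ± 0.65, where PFK1 had 0.13. CUT_CDR276CTs3 had 12.3, 11.1, 7.31 and 15.8, and its log2 fold change was 1.11 ± 0.63, where PMP3 had 0.45 (both adjusted p = 0.916, DESeq2). The intervals of the groups overlap for each of them.

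CUT_CEL009CD2 covers the start of the annotated GCN4 and bases ahead of it. It had 65.9, 70.7, 78.2 and 42.5 normalized counts in untreated cells, with methanol, with 0.5 mM and with 2 mM ABA. The lowest value was that of 2 mM ABA, at -0.88 ± 0.43 log2 against 0.5 mM (adjusted p = 0.904, DESeq2), while GCN4 had 0.20. CUT_CPR037CC2 had 53.6, 63.5, 35.3 and 81.2 over the same groups, and its 2 mM ABA level stood 1.203 ± 0.54 log2 above that of 0.5 mM (adjusted p = 0.807, DESeq2). The groups stood in the same order for YPR036W-A, with 83.8, 92.0, 67.9 and 126, while IRC16, with 16.8, 27.4, 14.7 and 23.2, was highest with methanol.

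At the lower dose, CUT_CML028WTs3-B in TSA1 (a peroxiredoxin) was at -1.30 ± 0.62 log2 with 0.5 mM ABA against methanol (adjusted p = 0.611, DESeq2), beside -1.01 for TSA1. CUT_CLR325CD3, the 10 bases in RPL38 printed above, was at 1.04 ± 0.51 with 0.5 mM ABA against untreated (adjusted p = 0.592, DESeq2), beside 0.21 for RPL38. CUT_CGL202WTs2 and its gene ARO8, an aromatic aminotransferase, went opposite ways with 0.5 mM ABA against methanol, at 0.92 ± 1.00 and -1.25, but the member's mean count was 4.67 and its interval runs on both sides of 0.

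With methanol alone, CUT_CPL061WTs2 in ALD6 (aldehyde dehydrogenase) was at 1.53 ± 0.76 log2 against untreated and CUT_CDR158WTs2 in HOM2 (threonine and methionine synthesis) at -1.65 ± 0.83 (both adjusted p = 0.998, DESeq2). Their genes had 0.63 and -0.61. CUT_CsnR41Ts1-A, 34 bases in the 3′ end of ASR1 and 30 bases from the snoRNA gene snR41, had the highest fold change of this comparison at 1.57 ± 0.88. Its levels of 4.05, 12.03, 13.4 and 5.19 in the untreated, methanol, 0.5 mM and 2 mM groups had the same order as those of ASR1 (4.56, 12.6, 14.9 and 6.74) and snR41 (5.63, 13.1, 16.3 and 8.72).

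Among the members off coding genes, CUT677 had the lowest unadjusted p in any comparison. Its levels were 18.4 in untreated cells, 36.3 with methanol, 29.6 with 0.5 mM ABA and 26.02 with 2 mM ABA, so that the untreated group was the lowest. The log2 fold change with methanol against untreated was 0.98 ± 0.46 (adjusted p = 0.998, DESeq2). The adjoining snR190, a box C/D snoRNA, had 58.0, 86.3, 123 and 106 in the same groups, also lowest in untreated cells, with log2 fold changes of 0.57 with methanol, 1.08 with 0.5 mM and 0.88 with 2 mM ABA, none of them called (adjusted p = 0.998, 0.0983 and 0.287, DESeq2 and, for 2 mM, the Wald test).

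The XUTs had wide intervals. XUT_11R-226 had 11.1, 11.5, 22.4 and 18.9 normalized counts in untreated cells, with methanol, with 0.5 mM and with 2 mM ABA, higher in both ABA groups, but each interval reached from at most 11.1 to at least 22.4. XUT_15F-14 had 2.14, 1.89, 7.10 and 8.09 over the same groups, and its log2 fold change with 0.5 mM ABA against methanol, 1.91 ± 1.06, was the highest of any member (adjusted p = 0.686, DESeq2). XUT_12R-299 had 11.7, 16.7, 9.99 and 20.6, and GAS2 on the other strand had 7.07, 5.89, 9.61 and 19.6, so that both were highest with 2 mM ABA. XUT_12F-188 in the ribosomal DNA spacer had the largest standard error of all members with a level interval, 1.45 to 1.46 log2 units in every comparison.

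**Figure D4:**
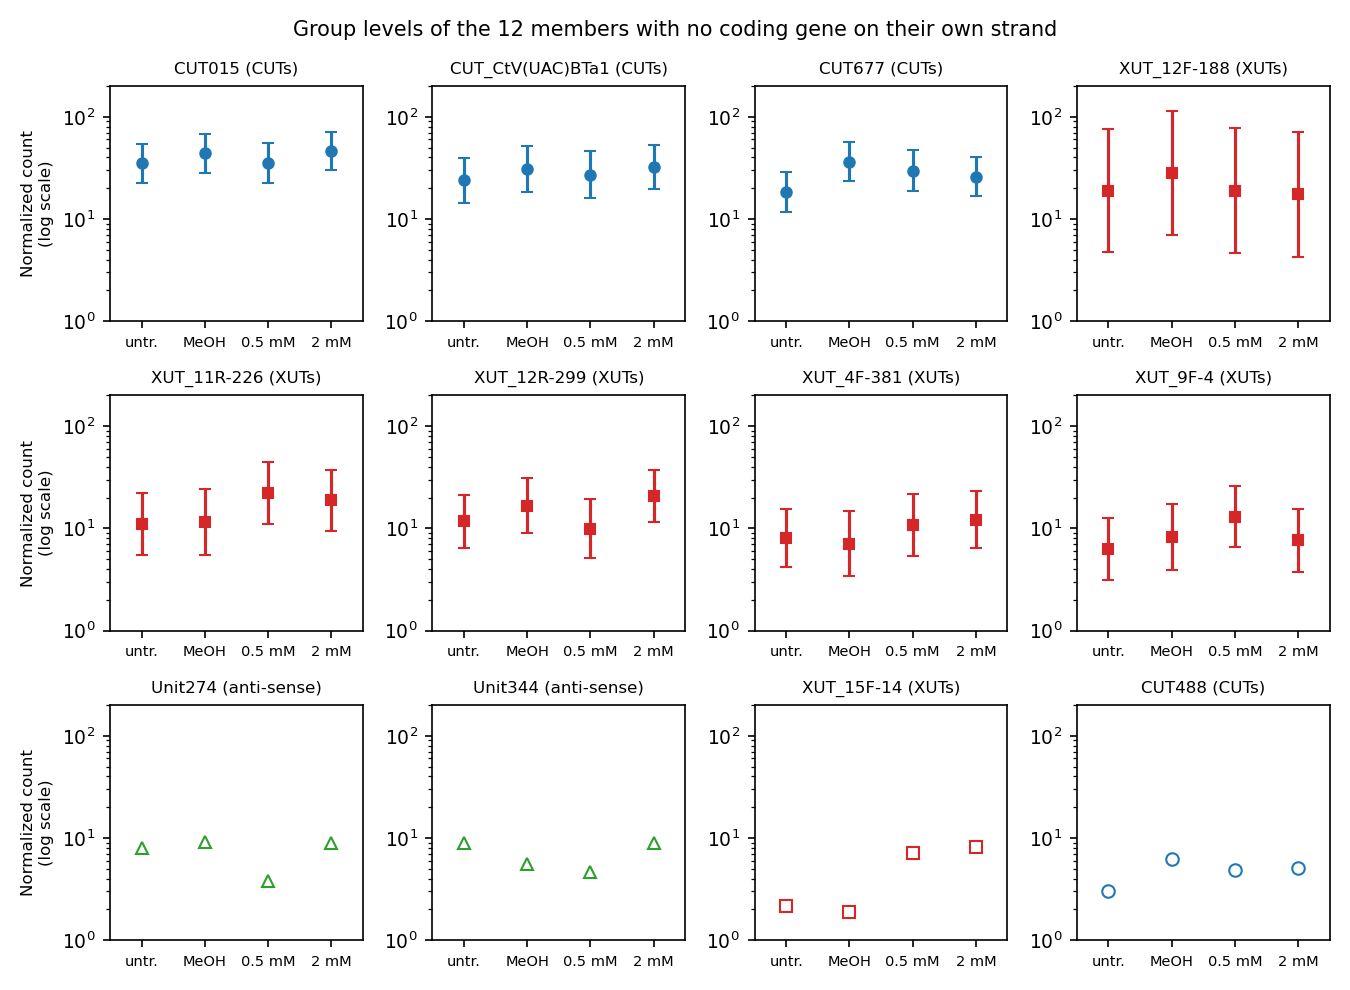
Normalized count (log scale) of the 12 members with no coding gene on their own strand in untreated cells, with 1% methanol (MeOH), with 0.5 mM and with 2 mM ABA, with 95% intervals where they could be solved and open symbols where not. Intervals of the 4 groups overlap for each member that has them, and the lowest points are those of XUT_15F-14, at 1.89 to 2.14 in the methanol and untreated groups.

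Unit87 had the smallest standard error of all members in each comparison, 0.25 to 0.26 log2 units. It had 194, 198, 204 and 186 normalized counts in untreated cells, with methanol, with 0.5 mM and with 2 mM ABA. Its fold change lay between 0.68 and 1.35 with 2 mM ABA against untreated and between 0.66 and 1.33 against methanol (95% intervals), so that a change of 2-fold was outside the interval. CUT_CGR192CTs2 in TDH3 had 126, 121, 103 and 102.

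The proteins that make or remove these transcripts were thinly covered. Of 64 genes in lists of the nuclear exosome, TRAMP, Nrd1-Nab3-Sen1, cytoplasmic and nuclear 5′ decay, nonsense-mediated decay, the Ski complex and chromatin factors that limit cryptic transcription, 7 were in the tables, namely GLC7, XRN1, PAT1, DHH1, NAM7, SKI3 and SPT16. None was called in the comparisons that held it, by the authors' DESeq2 or the Wald test, and 0 of 7 had an unadjusted p under 0.05. XRN1, whose product degrades XUTs, had 15.5, 14.8, 31.4 and 17.0 normalized counts in untreated cells, with methanol, with 0.5 mM and with 2 mM ABA. Its log2 fold change with 0.5 mM ABA was 1.02 against untreated (adjusted p = 0.828, DESeq2) and 1.09 against methanol (adjusted p = 0.686, DESeq2).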

How the data were processed

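RNA of 12 libraries in 4 groups was prepared by a modified RNAtag-Seq protocol with rRNA removal. Trimming by the authors was with Flexbar 3.4.0, removal of duplicates and counting of reads per feature with pyCRAC 1.4.6, and alignment to R64-1-1 with Novoalign 2.04 (multiple matches placed at random). The authors then fitted DESeq2 and deposited its tables. No source used here gives the version of DESeq2 that the authors ran, or how they counted a read that touches several features. The mean column is a signal that the authors deposited, the average over the libraries of read counts that were scaled by size factors. Log2 fold changes and standard errors are the authors' estimates, the Wald statistic is a score that the authors deposited, and each p-value and Benjamini-Hochberg adjusted p-value is theirs. The depth per library is unknown, since single-library values were not analysed here.

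The 5 tables have 1042, 698, 1042, 840 and 1042 rows. The values under the title 2 mM ABA against untreated are those of 0.5 mM ABA against methanol, to within 7.99e-15, and as titled leaves a median residual of 0.419 log2 units. Of 48 assignments of groups, 1 matched 4 of 5 titles and the next best 3. For 2 mM ABA against untreated, log2 fold changes of 2 tables were added for 840 features, group variances were solved from the squared standard errors, and p came from the normal distribution, two-sided, with Benjamini-Hochberg adjustment over the 840. Group levels scale each mean by the fold changes, and intervals are 95%. These errors cover the spread between 3 libraries a group as the authors' model has it.

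Positions, strands and classes come from the authors' annotation. Distances count the bases between features, and an overlap is at least 1 base. The reference genome reads ATG at 6656 of 6656 nuclear start codons of that annotation, and 0 features run past a chromosome end. The members and lists were chosen with earlier results of these data known. The text names the 10 members with the highest means, those with an unadjusted p under 0.05, the 3 highest and 3 lowest Wald statistics of each comparison, their neighbours, and genes of the lists. Other members and CUT_CGL202WTs2 were named after their values were seen. The calculations of 2 mM ABA against untreated and of the group levels were tested on simulated data, and the other calculations were not. The software was matplotlib 3.10.9, scipy 1.17.1, pandas 2.3.3 and numpy 2.4.6 under Python 3.11.15.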

Additional observations from a re-analysis of the deposited data

How the results depend on the processing

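The count of called members was computed under 30 alternatives (an adjusted p of up to 0.1, no fold minimum, adjustment over every feature with a p, features at or above the median mean only, a t distribution with 8 degrees of freedom), and 29 gave 0 as reported. Not all of these could have given another count. The lowest adjusted p of any member was 0.0856 (DESeq2), so dropping the fold minimum could add no call. The t distribution is stricter than the normal one and could add none either. With an adjusted p of up to 0.1, 1 member was called for 2 mM ABA against methanol, CUT_COL059WD2. Of 48 medians under an alternative, 39 kept the sign of the reported median. For 2 mM ABA against untreated, the median moved to 0.50 over members that share no base with a coding gene on either strand. There were 6 such members in all. The shift was larger than the median standard error of a single member's fold change. Members without a coding gene on their own strand were set apart after seeing the data. No paired analysis was possible because the tables hold no values of single libraries, and for the same reason no library could be left out in turn. Mean counts under 20 and standard errors above 0.5 log2 units limit what could be detected for most members.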

Other observations

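Beside the 3 anti-sense units, 3 other pairs of features had identical values in every table. These were HYP2 and MTC7 (mean normalized count 82.1), snR7-L and snR7-S, the long and short forms of the U5 snRNA (137), and IRC13 and snR17a, a copy of the U3 snoRNA (630).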
